A study of Rattus norvegicus with 6 samples.

Results

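The genes described here are those of cholesterol and fatty acid synthesis, 40 genes chosen by name from the textbook pathways. The choice was made with earlier results of these data known. They are the enzymes of the mevalonate and sterol pathway, their sterol-sensing regulators, and the enzymes that make, lengthen and desaturate fatty acids. Enzymes that pass fatty acids into membrane and myelin lipids are included as well. Of the 40 genes, 39 were measured, by 62 of the 31042 probe sets that are not manufacturer controls, and Hmgcs1 was not analysed here. A probe set is a group of short probes on the array that report 1 transcript, and 20 of the genes had 1 probe set and 19 had several. The arrays were Affymetrix rat arrays hybridised with RNA of primary rat Schwann cells, the glia of peripheral nerve, here from the sciatic nerve. Cells of both groups carried RafER, the kinase Raf fused to the ligand-binding domain of the estrogen receptor, which tamoxifen binds, and both had been moved to a serum-free minimal medium that holds transferrin, albumin, putrescine and selenium. The tamoxifen group (3 arrays) received tamoxifen for 24 h, and the vehicle group (3 arrays) received ethanol for the same time. The study describes 3 independent experiments, and the array titles number the arrays of each group 1 to 3. No label says that a shared number marks a shared culture or day. Arrays with the same number are called an experiment below, which is a reading of the titles and not a stated pairing. The source labels name treated rats where the design text has treated cultures, and the sources used here do not give the strain, the age or the number of animals behind a culture. The p-values therefore measure the spread between these arrays. No cells lacking RafER were analysed here, so what tamoxifen does and what Raf does cannot be told apart.

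Cholesterol is built from acetyl-CoA through mevalonate and squalene, and fatty acids are built from the same precursor by acetyl-CoA carboxylase and fatty acid synthase. The genes of both pathways are known targets of the SREBP transcription factors, which leave the endoplasmic reticulum for the nucleus when sterols are scarce, while INSIG proteins hold them back when sterols are plentiful. Schwann cells are known to need both pathways, since the myelin sheath is rich in cholesterol and in galactolipids with very long and hydroxylated fatty acid chains. Tamoxifen is itself known to bind the sterol isomerase encoded by Ebp.

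Values below are log2 expression values, so a difference of 1 is a 2-fold change, and differences are tamoxifen minus vehicle with the standard error (SE) of limma's fit. Each gene is given by its probe set with the highest mean, and a gene is said to have risen or fallen where limma's adjusted p was under 0.05. Of the 39 member genes 5 rose, 6 fell and 28 did not pass. That is 28.2% past the threshold, against 31.2% of all 14217 genes, of which 13.9% rose and 17.3% fell. Of the 62 member probe sets 8 rose and 7 fell (24.2%, against 24.4% of all probe sets). The 3 tamoxifen and the 3 vehicle values did not overlap for 13 of the 39 genes (33.3%), against 49.1% of all genes. The median difference of the members was -0.11, against 0.01 for all genes, and single members ranged from -2.50 to 1.99. The members thus passed at about the share of all genes. Among them 1 of 17 sterol enzymes passed (5.88%), 10 of 19 genes of fatty acid, glycerolipid and myelin lipid synthesis (52.6%) and 0 of 3 regulators. The number that rose was 3 without tamoxifen array 1, 1 without tamoxifen array 3, 2 without vehicle array 1 and 3 without vehicle array 2. When the experiment number was taken as a block, 8 members rose and 8 fell (13.9% and 19.4% of all genes). The 11 genes past the threshold without the block all passed with it, and Lss, Msmo1, Hsd17b7, Srebf1 and Fasn were added.

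**Figure D1:**
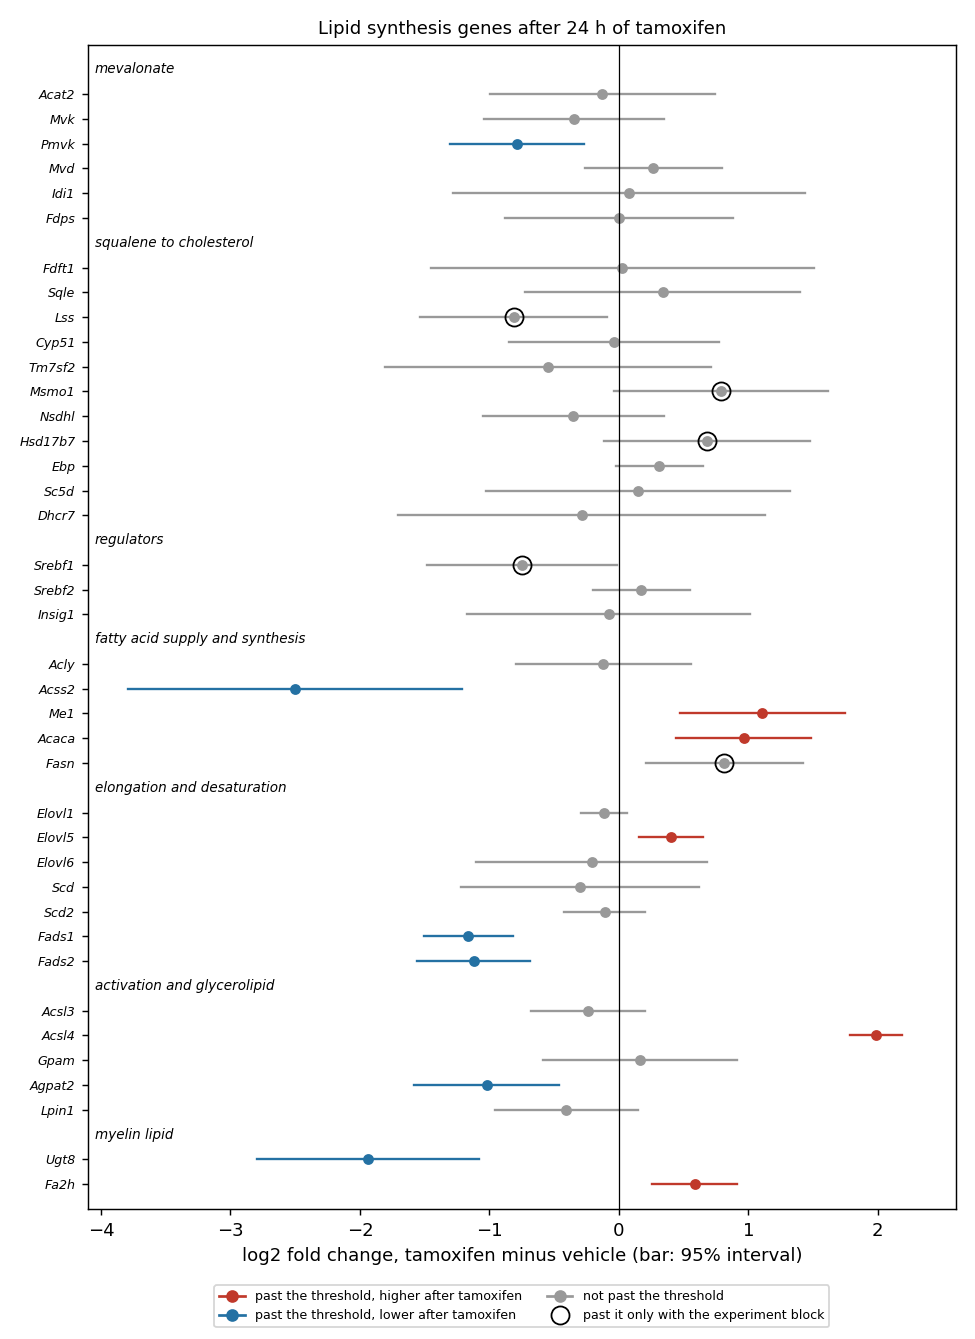
Log2 difference, tamoxifen minus vehicle, of each of the 39 member genes with its 95% interval from limma's fit, grouped by role. Red genes rose, blue genes fell, grey genes did not pass, and a black ring marks a gene that passed only with the experiment as a block. Most sterol enzymes lie around 0 with wide intervals, while Acsl4 (1.99) and Acss2 (-2.50) stand at the ends.

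In the mevalonate pathway, which makes the isoprenoid units, 1 of 6 measured enzymes fell and 5 did not pass. Pmvk, the kinase that phosphorylates mevalonate phosphate, had 7.91, 8.16 and 8.52 on the tamoxifen arrays of experiments 1, 2 and 3, against 8.88, 8.71 and 9.37 on the vehicle arrays. All tamoxifen values lay under all vehicle values. Pmvk fell by 0.79 ± 0.22 (limma, adjusted p = 0.0404; 0.579 times the vehicle level). The call did not hold without tamoxifen array 1 (adjusted p = 0.113), tamoxifen array 2 (0.118), vehicle array 1 (0.0597) or vehicle array 3 (0.0851). Fdps, which joins isoprenoid units to farnesyl diphosphate, had 10.94, 11.28 and 11.75 with tamoxifen and 10.74, 11.12 and 12.11 with vehicle. Its group means were 11.32 and 11.32, and the 95% interval of the difference was -0.88 to 0.88 (limma, without the block). Idi1, the isomerase that supplies the starter unit, had 9.43, 9.94 and 10.75 against 9.26, 9.42 and 11.20. The tamoxifen values of Idi1 lay inside the vehicle range (difference 0.08 ± 0.57). Its dimmer probe set was higher with tamoxifen within each experiment (0.68 ± 0.37; adjusted p = 0.251, and 0.0101 with the block). Acat2, which condenses acetyl-CoA at the entry of the pathway, differed by -0.13 ± 0.37, Mvk, the mevalonate kinase, by -0.35 ± 0.29 and Mvd, the decarboxylase, by 0.27 ± 0.22. The probe sets of Mvk disagreed: another one passed as lower (-0.57, adjusted p = 0.0422), and the dimmest one gave -0.02.

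Between squalene and cholesterol 0 of 11 enzymes passed, with differences from -0.81 to 0.79 and a median of 0.03. Fdft1, the squalene synthase, had 7.87, 8.10 and 8.86 with tamoxifen and 7.29, 7.75 and 9.70 with vehicle. Its vehicle values enclosed the tamoxifen values (0.03 ± 0.62). Sqle, the squalene epoxidase, differed by 0.34 ± 0.45, Cyp51, the lanosterol demethylase, by -0.04 ± 0.34 and Sc5d, the sterol desaturase, by 0.15 ± 0.49. Dhcr7, the reductase of the last step, had 7.12, 7.28 and 8.11 against 6.94, 7.26 and 9.18, a difference of -0.29 ± 0.59. Ebp, the sterol isomerase, had 7.74, 8.10 and 8.24 against 7.64, 7.71 and 7.78. Its groups overlapped through tamoxifen array 1 only, and the difference was 0.31 ± 0.14 (adjusted p = 0.162, and 0.0338 without tamoxifen array 1). Tm7sf2, a sterol reductase, differed by -0.55 ± 0.53, and Nsdhl, which acts in removing the methyl groups of lanosterol, by -0.35 ± 0.29. The dimmer probe set of Nsdhl was lower with tamoxifen without overlap (-0.74 ± 0.26; adjusted p = 0.0842, and 0.0265 with the block).

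A further set of enzymes of this stretch did not pass. These enzymes passed when each tamoxifen array was set against the vehicle array of the same number (the block). Msmo1, the methylsterol oxidase, had 11.92, 11.94 and 12.48 with tamoxifen and 10.76, 11.12 and 12.10 with vehicle. It was higher with tamoxifen within each experiment, while the groups overlapped through vehicle array 3. The difference was 0.79 ± 0.35 (adjusted p = 0.156, 0.0228 with the block and 0.0172 without vehicle array 3). Hsd17b7, a sterol ketoreductase, had 7.62, 7.74 and 8.52 against 7.33, 6.71 and 7.80. It too was higher with tamoxifen within each experiment (0.68 ± 0.33; adjusted p = 0.198, and 0.0325 with the block), and its dimmer probe set passed without the block (1.11, adjusted p = 0.0365). Lss, the lanosterol synthase that closes the sterol rings, went the other way, with 7.14, 6.93 and 7.55 against 8.00, 7.44 and 8.60. Lss was lower with tamoxifen within each experiment (-0.81 ± 0.30; adjusted p = 0.101, 0.0102 with the block and 0.0339 without vehicle array 2), though its other probe set gave -0.24 ± 0.34.

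Within each treatment the sterol enzymes followed the experiment number. In both groups the array of experiment 3 had the highest value for 17 of 17 sterol enzymes, a count made after the values were seen, against 12.3% of all genes (1748 of 14217). The experiment 3 array exceeded the mean of the other arrays of its group by a median of 0.63 with tamoxifen (0.32 to 1.22) and of 1.16 with vehicle (0.10 to 2.18). The same medians over all genes were 0.003 and -0.03. The spread over the 3 arrays was wider with vehicle than with tamoxifen for 16 of the 17, against 7530 of all 14217 genes. The difference between treatments was also taken within each experiment. In experiment 1 its median over the 17 enzymes was 0.17, with 11 higher with tamoxifen and 6 lower, and in experiment 2 it was 0.17 with the same numbers. In experiment 3 the median was -0.45, with 6 higher and 11 lower, and the values ran from -1.17 to 0.72. Over all genes the median difference was -0.03, 0.01 and 0.02 in experiments 1, 2 and 3. Each of these values rests on 1 array per group, so a change of the difference between experiments could not be tested. Tested over all genes with limma, the experiment term passed for 0 of 14217 genes (0%), and for the sterol enzymes its adjusted p was 0.134 to 0.635. Without adjustment it had a p under 0.05 for 1430 genes (10.1%) and for 16 of the 17 sterol enzymes. For these enzymes the p-values come from the same values in which the pattern was seen, so they are no separate support for it. The count of 17 was the same with the mean of each gene's probe sets, without dim probe sets, and under other scalings of the arrays (median centring, quantile and cyclic loess). Of the other members 6 of 19 genes of fatty acid, glycerolipid and myelin lipid synthesis had their highest values on both arrays of experiment 3. The apolipoprotein gene Apoe, also picked after its values were seen, had 6.74, 6.43 and 8.70 with tamoxifen and 7.35, 7.11 and 9.58 with vehicle (difference -0.73 ± 0.82; adjusted p = 0.590, and 0.00667 with the block). Some cell markers, named after their values were seen, moved with experiment 3 as well. Of the 7 Schwann markers 0 were highest on both arrays of experiment 3. On the experiment 3 array, relative to the mean of the other arrays of its group, Gap43, a growth-associated gene of Schwann cells, stood at -2.96 with tamoxifen and -2.03 with vehicle. Ngfr stood at -0.78 with tamoxifen and -0.43 with vehicle, and Col3a1, a collagen gene of the fibroblast list, at 0.51 with tamoxifen and 1.85 with vehicle. The list medians were smaller: -0.27 with tamoxifen and -0.18 with vehicle for Schwann markers, and -0.09 and -0.01 for fibroblast markers. L1cam and Erbb3, also Schwann markers, stood at 0.57 and 0.36 with vehicle, and at -0.05 and -0.27 with tamoxifen. The part of these shifts in the sterol values was not tested. The median log2 value over all probe sets was 6.35 and 6.33 on the arrays of experiment 3, within the 6.30 to 6.37 of the other 4 arrays. Where a shared number means shared cultures, handling or cell stock, these cannot be told apart here.

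**Figure D2:**
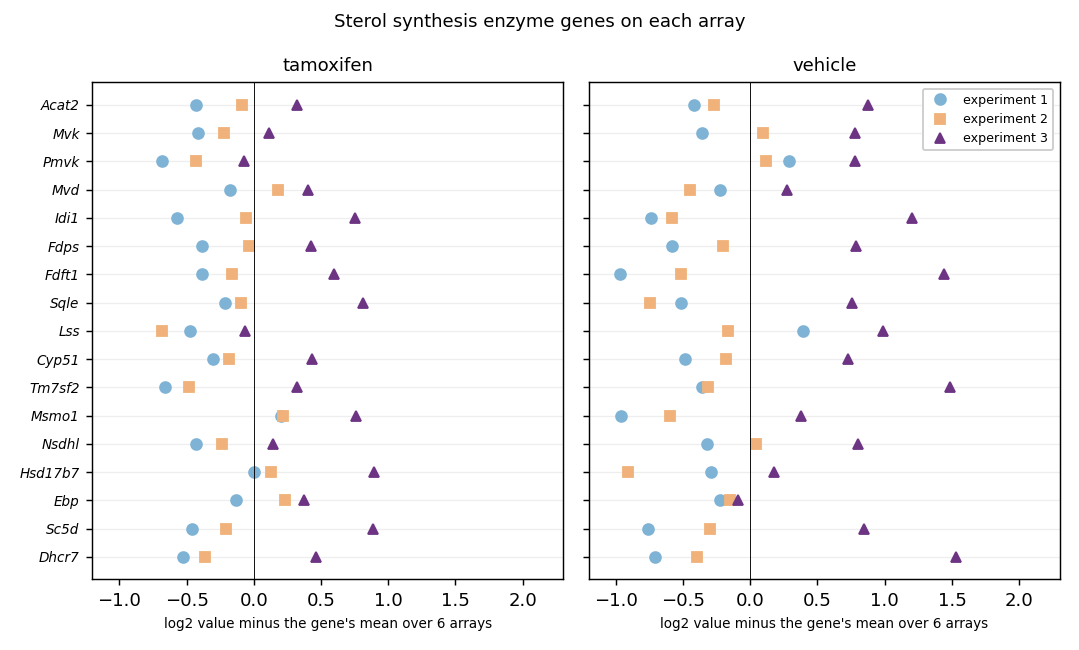
Log2 value of each of the 17 measured sterol enzymes on each array, as the distance from the gene's mean over all 6 arrays, with tamoxifen arrays on the left and vehicle arrays on the right. Circles, squares and triangles are experiments 1, 2 and 3. The triangle is the rightmost symbol of every row in both panels, and it lies farther out with vehicle than with tamoxifen for most genes.

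The promoters of these enzymes are shown because the enzymes varied together between experiments. Sterol genes are known to carry sites for SREBP beside sites for the CCAAT-binding factor NF-Y. RefSeq promoters (rat assembly GRCr8) were matched for 33 of the 39 measured members, and the 250 bases before the start of the transcript were searched on both strands for CCAAT and for TCACNCCA, a core of sterol regulatory elements. The motifs did not overlap each other in the promoters printed here. CCAAT was found in 11 of 14 promoters of sterol enzymes (78.6%), in 13 of 20 promoters of the other members (65%) and in 34% of all 33469 promoters in the table. TCACNCCA was found in 1 of 14 promoters of sterol enzymes, that of Msmo1, in 1 of 20 of the other members, that of Srebf2, and in 3.24% of all promoters. A match is a run of letters and no evidence of binding. The sequences below run 5′ to 3′ on the strand of the gene and end 1 base before its start. Capitals mark CCAAT, its reverse complement ATTGG, and TCACNCCA. Msmo1 lies at chr16:29746863-29747112 on the plus strand, with CCAAT beginning 173, 109 and 68 bases before the start and TCACNCCA 190 bases before it. Fdps lies at chr2:176804817-176805066 on the minus strand, with CCAAT on the opposite strand 130 bases before the start and on its own strand 85 bases before it. Idi1 lies at chr17:66547525-66547774 on the minus strand, with matches on the opposite strand 66 and 35 bases before the start. Cyp51, at chr4:30991443-30991692 on the plus strand, has neither run of letters in this window and is printed as a promoter without a match. Its levels followed the same order of experiments. A link between the motifs and the levels was not tested.
Msmo1: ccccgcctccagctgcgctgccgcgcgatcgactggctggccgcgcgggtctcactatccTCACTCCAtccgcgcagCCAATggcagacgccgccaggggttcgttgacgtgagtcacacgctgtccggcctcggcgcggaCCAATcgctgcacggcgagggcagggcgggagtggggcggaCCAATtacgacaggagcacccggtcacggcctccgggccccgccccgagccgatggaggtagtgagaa
Fdps: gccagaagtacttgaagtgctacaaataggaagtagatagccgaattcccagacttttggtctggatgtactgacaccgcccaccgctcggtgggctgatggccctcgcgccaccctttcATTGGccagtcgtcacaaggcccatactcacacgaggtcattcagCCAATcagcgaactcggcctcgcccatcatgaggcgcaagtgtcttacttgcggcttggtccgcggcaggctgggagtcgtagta
Idi1: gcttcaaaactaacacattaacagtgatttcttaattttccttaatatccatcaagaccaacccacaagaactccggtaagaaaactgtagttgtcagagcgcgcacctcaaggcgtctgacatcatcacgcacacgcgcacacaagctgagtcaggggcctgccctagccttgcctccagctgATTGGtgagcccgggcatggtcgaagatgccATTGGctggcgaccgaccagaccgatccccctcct
Cyp51: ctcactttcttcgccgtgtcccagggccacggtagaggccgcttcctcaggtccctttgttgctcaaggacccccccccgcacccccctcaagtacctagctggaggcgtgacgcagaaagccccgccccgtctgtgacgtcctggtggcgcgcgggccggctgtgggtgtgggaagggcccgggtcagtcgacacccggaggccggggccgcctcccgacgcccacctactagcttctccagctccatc

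None of the 3 regulators passed. Srebf1, which encodes the SREBP known mainly for fatty acid genes, had 9.44, 8.75 and 9.10 with tamoxifen and 10.22, 9.18 and 10.13 with vehicle. It was lower with tamoxifen within each experiment, while the groups overlapped. The difference was -0.75 ± 0.31 (adjusted p = 0.134, 0.0158 with the block and 0.0214 without vehicle array 2), and its other probe set gave -0.51 ± 0.20 (adjusted p = 0.125, and 0.0247 with the block). Srebf2, which encodes the SREBP known mainly for cholesterol genes, had 9.71, 9.44 and 9.60 against 9.61, 9.10 and 9.52 (0.17 ± 0.16, 95% interval -0.20 to 0.55). Insig1, the sterol sensor that retains SREBP and is itself a known SREBP target, had 9.07, 9.21 and 9.98 against 8.98, 9.00 and 10.53. It was highest in experiment 3 in both groups, like the enzymes, with a difference of -0.08 ± 0.46, whereas Srebf1 and Srebf2 were not.

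Of the 5 genes that supply and build fatty acids 2 rose, 1 fell and 2 did not pass. Acss2, which makes acetyl-CoA from acetate, had 6.23, 6.21 and 6.47 with tamoxifen and 8.29, 7.96 and 10.17 with vehicle. The tamoxifen values lay close together and under all vehicle values, of which that of experiment 3 was the highest. Acss2 fell by 2.50 ± 0.54 (adjusted p = 0.0171), the most of any member, a level 5.66-fold lower. Without vehicle array 3 the difference was -1.82, and Acss2 no longer passed without tamoxifen array 1 (adjusted p = 0.0539) or 2 (0.0623). Acly, which makes the same acetyl-CoA from citrate, had 11.16, 11.17 and 11.58 against 11.16, 11.04 and 12.08. Its groups overlapped (-0.12 ± 0.28; adjusted p = 0.813). Me1, the malic enzyme that supplies NADPH for the synthesis, had 7.91, 7.52 and 7.84 against 6.59, 6.14 and 7.21. All its tamoxifen values lay above all vehicle values, and Me1 rose by 1.11 ± 0.27 (adjusted p = 0.0253; 1.15 by its other probe set, adjusted p = 0.0293). The call of Me1 was lost without tamoxifen array 1 (0.0803), 2 (0.0527) or 3 (0.0825) or vehicle array 1 (0.0558).

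Acaca and Fasn encode the enzymes of the synthesis itself. Acaca, the acetyl-CoA carboxylase that sets its rate, had 9.97, 9.53 and 10.17 with tamoxifen and 9.10, 8.56 and 9.12 with vehicle. The groups did not overlap, and Acaca rose by 0.96 ± 0.22 (adjusted p = 0.0201; 1.95-fold), with 1.26 by its other probe set (adjusted p = 0.0193). It did not pass without tamoxifen array 1 (0.0643) or 3 (0.0658). Fasn, the fatty acid synthase, had 12.11, 11.45 and 12.03 against 11.11, 10.62 and 11.42. Every tamoxifen value of Fasn lay above every vehicle value, though only just, and it was higher within each experiment. The difference was 0.81 ± 0.25 with an adjusted p of 0.0600, and with the block it passed (adjusted p = 0.00651). It also passed without tamoxifen array 2 (0.0439) or vehicle array 3 (0.0419). Its other probe set gave 0.68 ± 0.35 (adjusted p = 0.218, and 0.0148 with the block).

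Among the 7 elongases and desaturases 1 rose, 2 fell and 4 did not pass. The 2 that fell are the front-end desaturases of polyunsaturated fatty acids, which lie beside each other in the genome. Fads1, the delta-5 desaturase, had 10.98, 10.57 and 10.72 with tamoxifen and 12.05, 11.71 and 12.00 with vehicle. The lowest vehicle value lay above the highest tamoxifen value by more than either group's SD of 0.20 and 0.18. Fads1 fell by 1.16 ± 0.14 (adjusted p = 0.00244; 2.24-fold lower). Fads2, the delta-6 desaturase, had 8.74, 8.22 and 8.76 against 9.95, 9.60 and 9.54, again without overlap, and fell by 1.12 ± 0.18 (adjusted p = 0.00633; 2.17-fold lower). Both calls held under each of the 17 alternative analyses. Elovl5, the elongase of polyunsaturated chains, had 11.44, 11.49 and 11.70 against 11.12, 11.07 and 11.23. Elovl5 rose by 0.40 ± 0.10 (adjusted p = 0.0307), a small change that was lost without tamoxifen array 2 (0.0726) or 3 (0.0833) or vehicle array 1 (0.0637) or 2 (0.0925). Its other probe set gave 0.97 ± 0.39 (adjusted p = 0.128, and 0.0494 with the block).

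The desaturases that make monounsaturated fatty acids did not pass. Scd differed by -0.30 ± 0.38, with 9.19, 8.72 and 10.07 with tamoxifen against 9.97, 9.06 and 9.84 with vehicle. Scd2 had 13.30, 12.92 and 13.17 against 13.22, 13.11 and 13.40 (-0.11 ± 0.13), and its 3 other probe sets gave 0.39, 0.16 and 0.01. Elovl6, which lengthens palmitate, differed by -0.21 ± 0.37, and Elovl1, which lengthens very long chains, by -0.11 ± 0.08 (adjusted p = 0.341), with a 95% interval of -0.29 to 0.07.

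**Figure D3:**
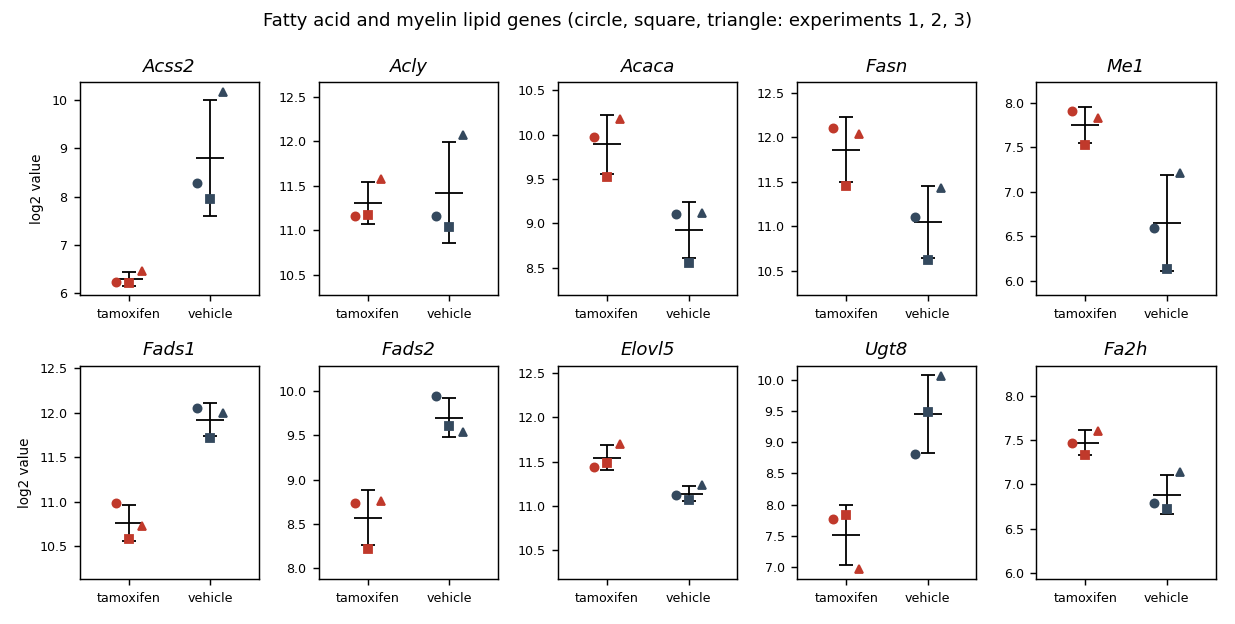
Log2 value on each array for genes of fatty acid synthesis and desaturation and of myelin lipid synthesis, with tamoxifen on the left and vehicle on the right of each panel. Symbols are experiments 1 (circle), 2 (square) and 3 (triangle), and bars are the mean ± SD of 3 arrays. Fads1 and Fads2 separate cleanly and lower with tamoxifen, Acss2 lies near 6.3 on all tamoxifen arrays, and the groups of Fasn lie close to each other.

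Fatty acids are used only once they are joined to coenzyme A by acyl-CoA synthetases, and among the 5 activation and glycerolipid members 1 rose, 1 fell and 3 did not pass. Acsl4, the synthetase known to prefer arachidonate and other polyunsaturated fatty acids, had 12.13, 12.02 and 12.20 with tamoxifen and 10.11, 10.15 and 10.12 with vehicle. The spread in both groups was small (SD 0.09 and 0.02), and Acsl4 rose by 1.99 ± 0.08 (adjusted p = 8.232e-05; 3.97-fold), the largest rise of any member and one that held under all 17 alternatives. Acsl3, a synthetase of the endoplasmic reticulum and lipid droplets, had 11.07, 10.72 and 10.81 against 11.17, 10.74 and 11.40, overlapping groups with a difference of -0.24 ± 0.18. Agpat2, which adds the second acyl chain on the way to phosphatidic acid, had 8.26, 8.56 and 7.91 against 9.56, 9.41 and 8.83. All tamoxifen values of Agpat2 lay under all vehicle values and it fell by 1.02 ± 0.24 (adjusted p = 0.0217), a call lost without tamoxifen array 1 (0.0615) or 3 (0.0676) or vehicle array 2 (0.0677). Gpam, which adds the first chain, differed by 0.16 ± 0.31, and Lpin1, the phosphatidate phosphatase, by -0.40 ± 0.23 (adjusted p = 0.269, and 0.0481 without tamoxifen array 1).

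The rest of the long-chain acyl-CoA synthetase family and the enzymes that burn fatty acids belong to a list of 36 genes of fatty acid handling, of which 32 were measured. In it 7 rose, 5 fell and 20 did not pass (37.5% past the threshold, against 31.2% of all genes). The median was -0.03, and with the block 7 rose and 8 fell. Acsl1 had 10.25, 10.01 and 10.17 with tamoxifen and 8.16, 8.00 and 8.16 with vehicle, and it rose by 2.04 ± 0.10 (adjusted p = 0.0001301). Acsl5 had 8.90, 9.40 and 9.74 against 7.23, 7.52 and 7.56, and rose by 1.91 ± 0.22 (adjusted p = 0.00189). In both, no tamoxifen value came within 1 log2 unit of a vehicle value, and a second probe set rose as well (1.73 for Acsl1 and 1.59 for Acsl5), while another, dim probe set of Acsl1 gave -0.11. Acsl6, named to complete the family, was dim in both groups (-0.20 ± 0.20). Of the 5 synthetase genes 3 thus rose about 4-fold and Acsl3 and Acsl6 did not pass. Some genes of mitochondrial oxidation fell. Cpt1a, which admits fatty acids to mitochondria, had 8.99, 8.94 and 8.33 against 10.48, 10.38 and 9.92 and fell by 1.51 ± 0.22 (adjusted p = 0.00456). Acadvl, the dehydrogenase of the first step of very long-chain oxidation, had 9.66, 9.58 and 8.94 against 10.80, 10.88 and 10.70 and fell by 1.40 ± 0.20 (adjusted p = 0.00368). Further enzymes of oxidation, named after their values were seen, were mixed: Cpt2 fell by 0.79 ± 0.11 (adjusted p = 0.00355), and Hadhb fell by 0.69 ± 0.19, a call that did not hold without tamoxifen array 2 (0.0690) or 3 (0.0687) or vehicle array 1 (0.0845) or 2 (0.105). Hadha did not pass (-0.48 ± 0.18; adjusted p = 0.110, and 0.0220 with the block), and neither did Acadm (-0.09 ± 0.10) or Acadl (-0.01 ± 0.22).

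**Figure D4:**
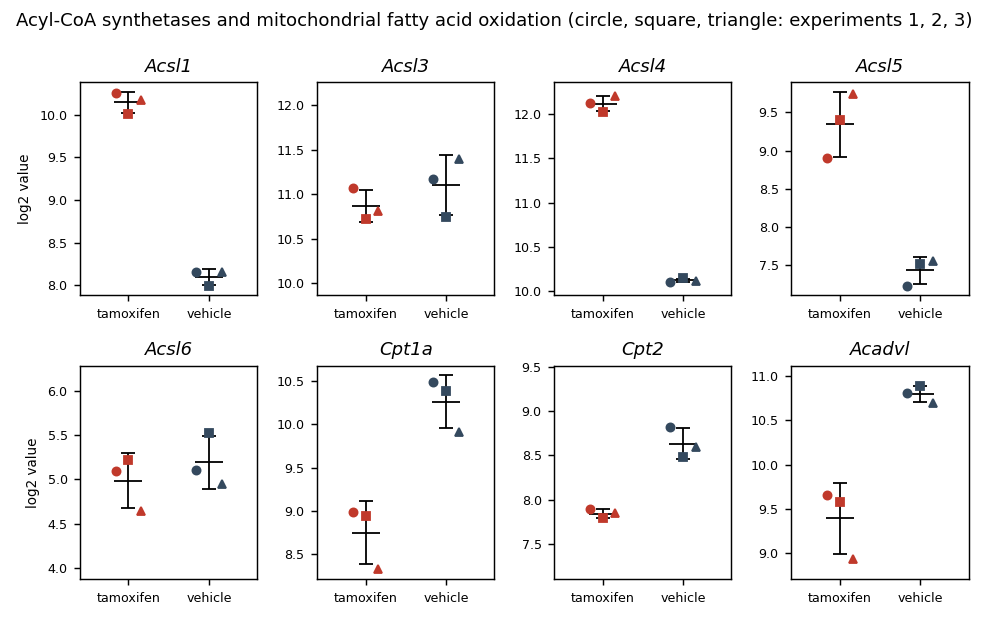
Log2 value on each array for acyl-CoA synthetase genes and for genes of fatty acid oxidation, with tamoxifen on the left and vehicle on the right of each panel. Symbols are experiments 1 (circle), 2 (square) and 3 (triangle), and bars are the mean ± SD of 3 arrays. Acsl4, Acsl1 and Acsl5 lie about 2 log2 units higher with tamoxifen, and Cpt1a and Acadvl lie lower.

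Both members of myelin lipid synthesis passed, in opposite directions. Ugt8, which makes galactosylceramide, the main galactolipid of myelin, had 7.76, 7.82 and 6.96 with tamoxifen and 8.82, 9.48 and 10.06 with vehicle. The groups did not overlap and stood farthest apart in experiment 3. Ugt8 fell by 1.94 ± 0.36 (adjusted p = 0.00989; 3.83-fold lower), a call kept under all 17 alternatives, while a dim second probe set near the bottom of the scale (3.35 and 3.33) gave 0.02. Fa2h, which hydroxylates the fatty acid of that lipid, had 7.47, 7.33 and 7.61 against 6.79, 6.72 and 7.14. The groups did not overlap, and Fa2h rose by 0.58 ± 0.14 (adjusted p = 0.0230). Its call was lost without tamoxifen array 1 (0.0652) or 3 (0.0780) or vehicle array 1 (0.0548) or 2 (0.0701). Of 25 other sphingolipid genes 21 were measured, of which 4 rose and 5 fell (42.9%, against 31.2% of all genes), with a median of 0.03. Sphk1, the sphingosine kinase, rose by 2.81 ± 0.32 and B4galt6, a lactosylceramide synthase, rose by 0.98 ± 0.17. St3gal5, which makes the ganglioside GM3, fell by 0.92 ± 0.19 and narrowly missed the threshold without tamoxifen array 2 (adjusted p = 0.0506). Sgms1, a sphingomyelin synthase, fell by 0.94 ± 0.26 (adjusted p = 0.0413). The call of Sgms1 was lost without tamoxifen array 1 (0.0935), 2 (0.101) or 3 (0.126) or vehicle array 2 (0.0971) or 3 (0.0547), and its other probe set gave 0.11. Gal3st1, the sulfotransferase that acts on the product of Ugt8, fell by 0.73 ± 0.13, and Cers2, the ceramide synthase of very long chains, rose by 0.80 ± 0.08. Both were named after their values were seen.

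Markers of Schwann cells also moved. Of 10 listed Schwann markers 7 were measured, and 42.9% of these passed, against 31.2% of all genes. Pou3f1 rose by 1.65, Ngfr fell by 1.53 and S100b fell by 0.76. With the block Gap43 (-1.14; adjusted p = 0.452, and 0.0205 with the block) and Sox10 (-0.90; adjusted p = 0.104, and 0.0300 with the block) were also lower, 4 of 7 in all. Erbb3 (-0.06; limma, adjusted p = 0.869) and L1cam (-0.51; adjusted p = 0.209) did not pass with or without the block. The log2 of the summed linear level of the 7 markers was 13.27 to 14.08 with tamoxifen and 14.36 to 14.97 with vehicle. S100b and Ngfr, which both fell, were the brightest in that sum, with vehicle means of 13.11 and 12.99. In RNA from a whole culture, fewer cells of a type and less RNA per cell cannot be told apart. The part of these shifts in the changes of the lipid genes was not tested. The summed level of 8 fibroblast markers was 11.91 to 12.35 with tamoxifen and 12.95 to 13.42 with vehicle. Most of that sum was Col1a1, which alone had 11.71 to 12.22 with tamoxifen and 12.87 to 13.35 with vehicle. Of the 8 markers 5 had a positive and 3 a negative difference, with a median of 0.16. In that list Col1a1 and Col3a1, which Schwann cells can express too, fell and Fbln1 and Pdgfra rose. Lum and Dcn, fibroblast-defining markers, had means of 3.43 and 4.25 with tamoxifen and 3.44 and 4.05 with vehicle, near the bottom of a scale that starts at 2.99. No marker of macrophages (7), endothelium (5) or adipocytes (6) passed. The summed levels of these lists were 7.78 to 7.88, 7.44 to 7.54 and 7.24 to 7.37 with tamoxifen, and 7.72 to 7.77, 7.47 to 7.49 and 7.17 to 7.36 with vehicle. The known targets of Raf signalling rose, Dusp6 by 4.53 ± 0.08, Ccnd1 by 4.40 ± 0.28 and Spry4 by 3.19 ± 0.16.

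Cholesterol is also taken up, carried between membranes and stored. Of 27 measured genes of cholesterol balance 5 rose and 5 fell (37.0%, against 31.2% of all genes), with a median of -0.07. Tmem97, the sigma-2 receptor that takes part in sterol transport, had 9.76, 10.42 and 11.02 with tamoxifen and 7.87, 7.91 and 8.35 with vehicle and rose by 2.36 ± 0.31 (adjusted p = 0.00310). Scarb1, the receptor for high-density lipoprotein, rose by 1.18 ± 0.29 (adjusted p = 0.0255), with 1.12 by its other probe set (adjusted p = 0.0551). That call was lost without tamoxifen array 2 (0.0591) or 3 (0.0614) or vehicle array 1 (0.0582) or 2 (0.0761). Vldlr, a lipoprotein receptor, had 6.73, 6.92 and 7.39 against 8.27, 8.64 and 10.05. It fell by 1.97 ± 0.45 (adjusted p = 0.0210), a call lost without tamoxifen array 1 (0.0692) or 2 (0.0734). Mylip, the ubiquitin ligase that marks such receptors for degradation, fell by 1.81 ± 0.22. Star, which carries cholesterol into mitochondria for steroid synthesis, had 5.70, 5.36 and 5.70 against 11.12, 10.88 and 10.16 and fell by 5.13 ± 0.25, a larger change than that of any member. Insig2, the companion of Insig1, was named after its values were seen and fell by 1.17 ± 0.14 (adjusted p = 0.00206), with 8.57, 8.68 and 8.20 against 9.64, 9.72 and 9.60.

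Of 32 measured genes of glycerolipid and phospholipid metabolism 8 rose and 7 fell (46.9%, against 31.2% of all genes). The median was -0.02, and with the block 5 rose and 7 fell. Plpp3, a lipid phosphate phosphatase, rose by 1.67 ± 0.14, and Agpat5, a relative of Agpat2, rose by 0.86 ± 0.15, where Agpat2 fell. Ptdss2, which makes phosphatidylserine, fell by 1.43 ± 0.15. Lpin2, a relative of Lpin1, fell by 0.90 ± 0.13, while its other probe set went the other way, with a positive difference of 0.10.

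The quality of the arrays touches these values in one respect. The 3′ minus 5′ difference of control transcripts, a sign of RNA integrity, was 0.84 log2 units on vehicle array 1 and 0.16 to 0.27 on the other 5. Without both arrays of experiment 1, 1 member rose and 3 fell, a fit on 2 arrays per group, and with this difference as a covariate 2 rose and 4 fell. Fads1, Fads2, Acsl4 and Ugt8 were past the threshold in both.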

How the data were processed

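The authors deposited 1 log2 value per probe set and array, made with RMA according to the submitters' processing notes (version not given in the sources used here). RMA corrects background, normalises between arrays and compresses low values, so a change of a dim gene can come out too small. The table gives no detection calls, and the number of arrays limits the precision. Of 31099 probe sets 57 controls were left out. Genes were named by the platform annotation, and each of 14217 genes is represented by its probe set with the highest mean. Tamoxifen was compared with vehicle with limma 3.58.1 (lmFit, eBayes) under R 4.3.3, two-sided, on all 6 arrays and with no covariate. Adjusted p-values are Benjamini-Hochberg values over the 31042 probe sets, with a threshold of 0.05. An exact permutation test of 3 against 3 cannot go below 0.1, so none was used. Deviations from the group means of arrays with the same experiment number, from the titles, correlated by 0.26, 0.20 and 0.28, so the number was also fitted as a block. The members and lists were chosen with earlier results of these data known. All members are accounted for, and of every other list up to 4 genes past the threshold with the largest change are named, with Dusp6, Spry4, Ccnd1 and Star. The alternatives are given at the end. The fit was tested on simulated data.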

Additional observations from a re-analysis of the deposited data

How the results depend on the processing

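Over 17 alternatives, Fads1, Fads2, Acsl4 and Ugt8 kept their call, the other 7 called members lost it in at least 1, 7 members passed only under an alternative, and 0 calls reversed. With the replicate block 8 members rose, and 14 member probe sets rose and 11 fell, against 8 and 7 without it. Among the members the block changed no call but the 5 it added. Leaving out 1 array gave 1 to 7 members that rose and 4 to 7 that fell, and 1 to 10 probe sets that rose and 4 to 7 that fell. It left 2 arrays in a group, so fewer samples enter each fit. Without both arrays of experiment 1, which was added after seeing the data, 1 member rose and 3 fell, as did 3 and 3 probe sets. Adjusted for the 3′ minus 5′ difference of the arrays, 2 members rose, and 4 probe sets rose and 4 fell, and the cause was not tested. Pmvk also lost its call with the covariate (adjusted p = 0.0740), quantile normalization (0.0553) and cyclic loess (0.0741), as did Me1 (0.0543), Elovl5 (0.0696), Agpat2 (0.0622) and Fa2h (0.0604) with the covariate. Of 25 other named genes past the threshold 19 kept the call under all 17, and Sphk1 kept it under the 16 that could be run, since its 1 probe set ends in _a_at. Leaving out 1 array gave 1374 to 1915 of all genes that rose and 1688 to 2178 that fell. The experiment term passed for 0 sterol enzymes under the other scalings and without any 1 array.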
